A study of Mus musculus with 22 samples.

Results

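Resting bone marrow-derived macrophages (BMDM) from mice lacking both protein kinases MK2 and MK3 (MK2/3-/-) were compared with those from wild-type mice (wt), all of them kept for 360 min in culture medium without lipopolysaccharide (LPS). The comparison takes in every array that the labels give as medium-treated for these genotypes, 3 from MK2/3-/- and 4 from wt BMDM, out of 22 arrays of the series, and each difference was also computed without wt medium replicate 4, in which many LPS-inducible genes were raised. The other arrays are 4 of MK2-/- BMDM in medium and 11 of the 3 genotypes after 360 min with 100 ng per ml of LPS. All mice were male and of the strain C57BL/6. They were aged 12 or 13 weeks for the wt and 11 or 12 weeks for the MK2/3-/- medium arrays. Both MK2-/- groups also included mice younger than any of these, and the MK2/3-/- LPS group included an older mouse. The bone marrow of the mice had been differentiated with macrophage colony-stimulating factor (M-CSF), the growth factor that drives precursors to macrophages. Both kinases are missing from every tissue of the knockout animals, so that the macrophages also developed from bone marrow without them. Replicates come from separate experiments according to the methods. The arrays of the wt mice lay on 1 slide and those of the MK2/3-/- mice on another, each scanned together, and therefore genotype and slide cannot be told apart in any value given below.

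MK2 and MK3 are closely related kinases that are switched on by the stress-activated kinase p38 when macrophages sense bacterial products through Toll-like receptors. Their best known substrate is tristetraprolin (gene Zfp36), a protein that binds AU-rich elements in cytokine mRNAs and directs their decay, and phosphorylation by MK2 or MK3 lifts this restraint. Most studies follow this pathway after LPS, whereas the comparison made here asks which transcripts differed before any stimulus had been added.

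The arrays of the genotypes differed in brightness and in the number of spots marked as outliers. This number was 122 to 162 on the wt arrays and 180 to 212 on the MK2/3-/- arrays. Before normalisation the median processed signal was 53.9 to 78.7 on the wt arrays and 84.0 to 103 on the MK2/3-/- arrays. The share of probes well above background was at least 62.6% in wt and at least 72.6% in MK2/3-/- BMDM. After quantile normalisation the median SD between arrays was 0.29 in wt and 0.25 in MK2/3-/- BMDM on the log2 scale. Macrophage markers were present in both genotypes without a call. Csf1r, the receptor of M-CSF, had log2 signals of 18.22 to 18.45 in wt and 18.28 to 18.41 in MK2/3-/- BMDM, and Adgre1, which encodes F4/80, 15.97 to 16.73 and 16.27 to 16.71. None of 28 tested genes of macrophage identity and the M-CSF response was called (5 had an unadjusted p below 0.05), their median log2 difference being 0.15. Among 72 tested markers of neutrophils, mast cells, T and NK cells, B cells, dendritic cells, erythroid cells, stromal cells and osteoclasts only Cd4 was called (1.39%, compared with 1.95% of all genes), and 18 (25%) had an unadjusted p below 0.05, compared with 17.1% of all genes. The mean log2 signal over the 10 neutrophil markers ranged from 6.85 to 8.03 in wt and from 7.37 to 8.76 in MK2/3-/- BMDM. All 10 of these markers had a positive difference, and their median was 0.46. The median was 0.63 for 8 markers of mast cells and basophils, 5 of which had an unadjusted p below 0.05, and their mean signal was 4.74 to 5.92 in wt and 5.34 to 5.98 in MK2/3-/- BMDM. It was 0.46 for 9 markers of T and NK cells, 0.17 for 8 of B cells, 0.16 for 9 of dendritic cells, -0.04 for 9 of osteoclasts, -0.35 for 8 of erythroid cells and megakaryocytes and -0.37 for 11 of stromal and endothelial cells. The part of such cells in the results was not tested.

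In all, 437 of 22384 genes (1.95%) passed the threshold of an adjusted p below 0.05 in limma, a linear model moderated across genes. Of these, 313 (1.4% of the genes tested) were higher and 124 (0.554%) were lower in MK2/3-/- BMDM. The median change was 2.21-fold for the higher genes and 2.72-fold for the lower genes, and 43 and 34 of them changed at least 4-fold. Each call rests on 1 probe per gene. The called genes had 93 other probes, of which 59 differed in the same direction and 4 were called in that direction. Most called genes had low signals. Among the 5596 genes with the lowest signal 102 were called higher and 52 lower, compared with 22 and 7 among the 5596 brightest. In 47 of the higher genes no wt array was well above background, and in 31 of the lower genes no MK2/3-/- array was. With the arrays scaled to their 75th percentile, which moved the median difference of all genes from -0.03 to 0.09, 4270 genes were called, 90.1% of them higher compared with 71.6% above, and with cyclic loess 931, 60.9% of them higher. Without wt medium replicate 4 the calls fell to 145 genes (0.648%), 108 higher (0.482%) and 37 lower (0.165%), of which 136 were also called with that array. Without MK2/3-/- medium replicate 1, which leaves 2 arrays in this group, 20 genes were called, and all 20 belonged to the 437.

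**Figure D1:**
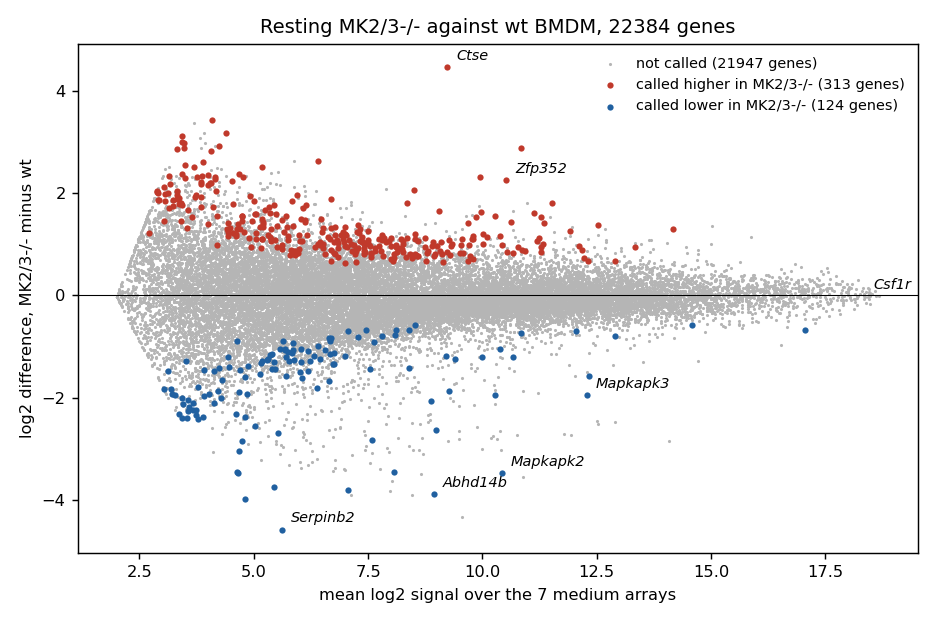
Log2 difference between MK2/3-/- and wt BMDM in medium (vertical axis) against the mean log2 signal over the 7 medium arrays (horizontal axis), 1 point per gene. The 313 genes called higher are red, the 124 called lower are blue, and the coloured points lie mostly at low signal, whereas Csf1r, at the bright end, lies at 0.

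The targeted genes were examined first. Mapkapk2, which encodes MK2, had log2 signals of 12.09, 12.38, 10.78 and 12.42 in the 4 wt arrays and of 8.47, 8.50 and 8.34 in the MK2/3-/- arrays. The groups did not overlap, as in 24.3% of all genes, and the log2 difference of -3.48 (SE 0.32) had an adjusted p of 1.47e-05. Mapkapk3, which encodes MK3, had values of 12.81, 13.22, 13.40 and 13.03 in wt and of 11.15, 10.95 and 11.40 in MK2/3-/- BMDM, a difference of -1.95 (SE 0.24, adjusted p 5.19e-04). Both probes remained well above background in every knockout array. Both calls held in each of the 7 fits without 1 array. The loss of Mapkapk3 signal was larger under LPS, where it amounted to -4.13, and this change of the genotype difference with LPS, -2.18 (SE 0.33), was itself called (adjusted p 0.0171).

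Of 26 tested members of the p38 pathway 3 were called (11.5%, compared with 1.95% of all genes), all lower, namely the targeted genes Mapkapk2 and Mapkapk3 and, besides them, Map2k6. Map2k6 encodes MKK6, a kinase that activates p38. Its log2 signals were 7.08 to 7.61 in wt and 5.53 to 5.87 in MK2/3-/- BMDM, with a difference of -1.68 (SE 0.42, adjusted p 0.0457) that was not called without wt medium replicate 4 (adjusted p 0.0981) or in any of the other 6 fits without 1 array. Transcripts of p38 itself (Mapk14, -0.12), of the related kinase MK5 (Mapkapk5, -0.06) and of tristetraprolin (Zfp36, 0.06) differed by less than their standard errors of 0.34, 0.13 and 0.35. Hspb1, the small heat shock protein that MK2 phosphorylates, had a difference of -2.66 with an SE of 1.52 and was not called (adjusted p 0.386).

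Genes next to Mapkapk3 on chromosome 9 were called more often than genes at large. Of the 80 tested genes nearest to Mapkapk3, 40 on each side in gene order, 10 were called (12.5%, compared with 1.95% of all genes), 7 lower and 3 higher, and 7 of the 10 also without wt medium replicate 4. A run of adjacent tested genes, at places -16 to -13 from Mapkapk3, was lower as a block. Abhd14a, a hydrolase-fold gene, had signals of 8.57 to 10.29 in wt and of 5.51 to 7.04 in MK2/3-/- BMDM, a difference of -3.46 (SE 0.63, adjusted p 0.0126). Its neighbour Abhd14b was at 10.30, 10.77, 10.76 and 10.57 in wt and at 7.36, 6.31 and 6.47 in MK2/3-/- BMDM, a difference of -3.88 (SE 0.38, adjusted p 3.55e-05). Every wt array thus lay more than 2 log2 units above every knockout array. Pcbp4, which encodes a poly(C)-binding protein, differed by -2.08 (SE 0.42, adjusted p 0.0227) and Parp3, an ADP-ribosyltransferase of DNA break repair, by -1.44 (SE 0.20, adjusted p 0.00216). Acy1, next in line at place -17, had a difference of -0.97 and was not called (adjusted p 0.187).

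Cish, the gene that directly follows Mapkapk3 in this order, encodes an SH2-domain protein of the SOCS family that restrains cytokine receptors and is itself switched on by STAT5. Its log2 signals were 6.83, 5.26, 5.36 and 7.15 in wt and 1.99, 2.19 and 3.84 in MK2/3-/- BMDM. All wt arrays and none of the knockout arrays were well above background, so that Cish was at least 7.96-fold lower (adjusted p 0.00382). Over all alternatives its measured log2 difference ranged from -4.06 to -0.94. Rbm15b (-0.79) and Amigo3 (-1.34) were the other lower genes, and Tlr9 (0.85), Iqcf5 (1.56) and Cacna2d2 (0.95) the higher ones. Dock3 and Hemk1, which flank Mapkapk3 and Cish, had positive differences of 0.43 (adjusted p 0.331) and 0.76 (adjusted p 0.0726).

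Around Mapkapk2 on chromosome 1, 1 of 80 genes (1.25%) was called in this comparison at rest. Ctse, at place 8, encodes cathepsin E, an intracellular aspartic protease. It was at 5.99, 6.53, 10.24 and 6.50 in wt and at 11.84, 11.78 and 11.75 in MK2/3-/- BMDM. The knockout arrays were nearly identical, whereas wt replicate 3 stood apart from the other wt arrays. The difference was 4.47 (SE 1.14, adjusted p 0.0498), and it was no longer called in 6 of 7 fits without 1 array, with values of 3.80 to 5.45 over all alternatives. Il10 and Il19, cytokine genes that immediately precede Mapkapk2, differed by -0.83 and -1.93 without a call (adjusted p 0.395 and 0.169). A recount without the targeted genes and the genes beside them, chosen after seeing the data, left 424 called genes, 309 higher and 115 lower. The fit and the adjustment of p were not redone for it. Between MK2/3-/- and wt BMDM under LPS, 26 of 80 genes (32.5%) were called beside each targeted gene, where 9.4% of all genes were higher and 14.3% lower. Between MK2-/- and wt BMDM in medium, 10 of 80 (12.5%) were called beside Mapkapk2 and 9 (11.2%) beside Mapkapk3, compared with 8.57% of all genes.

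**Figure D2:**
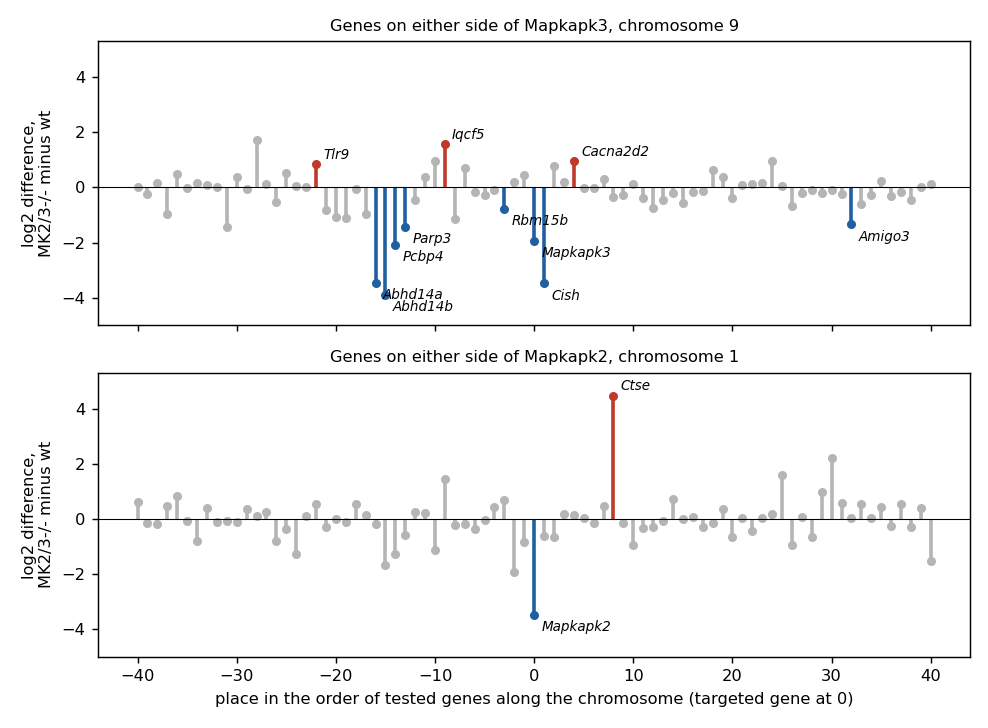
Log2 difference in medium, MK2/3-/- minus wt (vertical axis), of the tested genes on either side of Mapkapk3 (upper panel) and Mapkapk2 (lower panel), placed by gene order along the chromosome (horizontal axis). Called genes are named and coloured (blue lower, red higher), grey genes were not called, and 10 of 80 genes around Mapkapk3 but 1 of 80 around Mapkapk2 were called.

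The genes of inflammation that were lower included Il1a, Ccl7, Ccl2 and Serpinb2. Il1a encodes the cytokine IL-1 alpha. It was at 5.92, 4.31, 6.15 and 9.64 in wt and at 3.61, 1.99 and 1.99 in MK2/3-/- BMDM, where no array was well above background, and it was at least 9.91-fold lower (adjusted p 0.0284). Its highest wt value came from replicate 4. Without this array the bound fell to 4.804-fold and the call remained (adjusted p 0.0337), but the call was lost in 4 of the 7 fits without 1 array, in which the bound ranged up to 16.5-fold. Ccl7, a chemokine for monocytes, was at 9.11, 6.77, 9.05 and 9.84 in wt and at 3.90, 4.66 and 6.11 in MK2/3-/- BMDM, a difference of -3.81 (SE 0.70, adjusted p 0.0142) that became -3.42 without replicate 4 (adjusted p 0.0383). Both genes separated the genotypes completely, as did 122 of the 124 genes called lower and 24.3% of all genes.

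Ccl2, its close relative, differed by -1.87 (SE 0.46, adjusted p 0.0455) and Serpinb2, an inhibitor of plasminogen activators, was at least 19.7-fold lower (adjusted p 0.0347). Neither was called without replicate 4 (adjusted p 0.107 and 0.0785). For Serpinb2 the wt arrays themselves ranged from 5.58 to 10.46, and the bound fell to 10.1-fold without wt replicate 1, the highest of them.

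The promoter windows of Il1a, Serpinb2 and Cish are shown because these genes were below background in all resting MK2/3-/- arrays and, in wt BMDM, differed between LPS and medium by log2 values of 8.17, 4.62 and 4.79. Each window runs 5′ to 3′ from 250 bases before to 50 bases after the start of transcription and was taken from RefSeq for the build GRCm38.p6. Capitals mark matches, on either strand, to the letters TGANTCA (AP-1), TTCNNNGAA (STAT), TTGCNNAA (C/EBP), GGNNTTTCC (NF-kB, a loose form) or TGACGTCA (CRE). The windows are chr2:129309923-129310222 on the minus strand for Il1a, chr1:107511173-107511472 on the plus strand for Serpinb2 (the upstream one of 2 windows) and chr9:107296409-107296708 on the plus strand for Cish.
Il1a: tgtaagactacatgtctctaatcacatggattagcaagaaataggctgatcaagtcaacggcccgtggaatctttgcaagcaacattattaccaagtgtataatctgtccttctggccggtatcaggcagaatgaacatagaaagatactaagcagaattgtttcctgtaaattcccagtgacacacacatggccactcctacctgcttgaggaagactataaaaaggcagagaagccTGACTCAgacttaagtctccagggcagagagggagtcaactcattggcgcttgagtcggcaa
Serpinb2: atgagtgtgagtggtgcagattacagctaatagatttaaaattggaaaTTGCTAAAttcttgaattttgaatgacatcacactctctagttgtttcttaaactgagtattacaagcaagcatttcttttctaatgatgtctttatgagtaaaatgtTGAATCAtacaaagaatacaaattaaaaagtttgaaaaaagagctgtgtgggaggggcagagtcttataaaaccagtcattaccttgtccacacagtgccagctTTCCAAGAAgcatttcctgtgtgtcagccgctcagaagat
Cish: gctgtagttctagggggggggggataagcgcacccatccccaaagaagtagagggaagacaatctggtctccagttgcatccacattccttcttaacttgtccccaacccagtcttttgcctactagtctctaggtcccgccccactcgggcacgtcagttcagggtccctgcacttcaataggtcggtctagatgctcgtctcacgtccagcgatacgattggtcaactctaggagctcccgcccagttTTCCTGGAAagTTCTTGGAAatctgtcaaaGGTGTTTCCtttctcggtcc

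In these windows Il1a held an AP-1 match at position -12 from the start site, and Serpinb2 an AP-1 match at -94, a C/EBP match at -202 and a STAT match at 11. Cish held a pair of STAT matches, at positions 1 and 12, whose letters are TTCCTGGAA and TTCTTGGAA, and 1 match to the NF-kB letters. Among all 32851 promoter windows of this length, 7.81% held the AP-1 letters, 8.3% the STAT letters, 10.8% the C/EBP letters, 5.82% the NF-kB letters and 1.79% the CRE letters. The windows of called genes were close to these shares for AP-1 (10.9% of 211 windows of higher genes and 10.3% of 97 windows of lower genes) and for STAT (9.48% and 8.25%), and the NF-kB letters were in 6.16% and 11.3% of them. The matches describe the sequence and do not show binding.

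**Figure D3:**
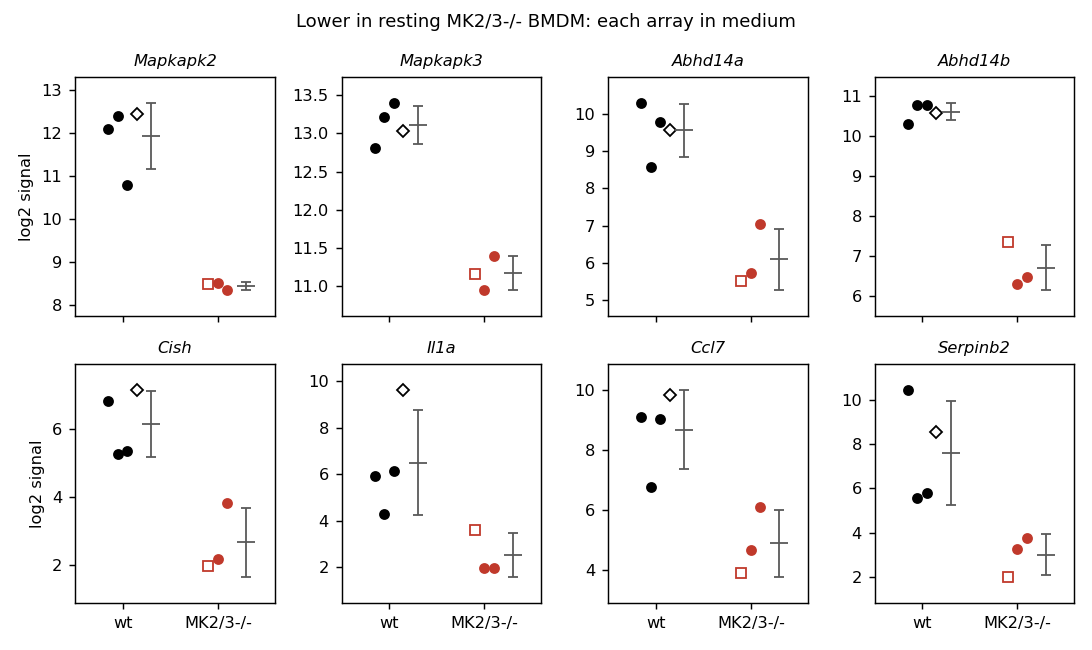
Log2 signal (vertical axis) of 8 genes that were lower in MK2/3-/- BMDM, 1 point per medium array, in wt (black, replicate 4 as an open diamond) and MK2/3-/- BMDM (red, replicate 1 as an open square), with mean and SD beside the points. The groups do not overlap in any of the 8 genes, as in 24.3% of all genes. Replicate 4 is the highest wt array for Il1a and Ccl7, whereas the wt arrays of Abhd14b lie close together.

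As a list, the cytokine and chemokine genes moved with 1 array. Of 33 tested genes, 3 were called lower (9.09%, compared with 0.554% of all genes) and none higher, and their median difference was -0.69. Replicate 4 was the highest of the 4 wt arrays in 26 of the 33 genes. Without it the median became -0.27, 2 genes remained called, and 5 genes changed the sign of their difference. Il1b, for example, differed by -0.84 with and by 0.18 without this array, and Cxcl10 by -1.58 and -0.82. Il6 was at 13.35 in replicate 4 and differed by -3.64 (adjusted p 0.0521), and by -2.39 without it. Tnf, the transcript best known as a target of this pathway, was alike in both genotypes (0.09, SE 0.47). The arrays of both genotypes did not overlap in 8 of the 33 genes (24.2%), and the same was true of 24.3% of all genes. Under 75th percentile scaling without replicate 4 the median of the list was 0.09, as was that of all genes.

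**Figure D4:**
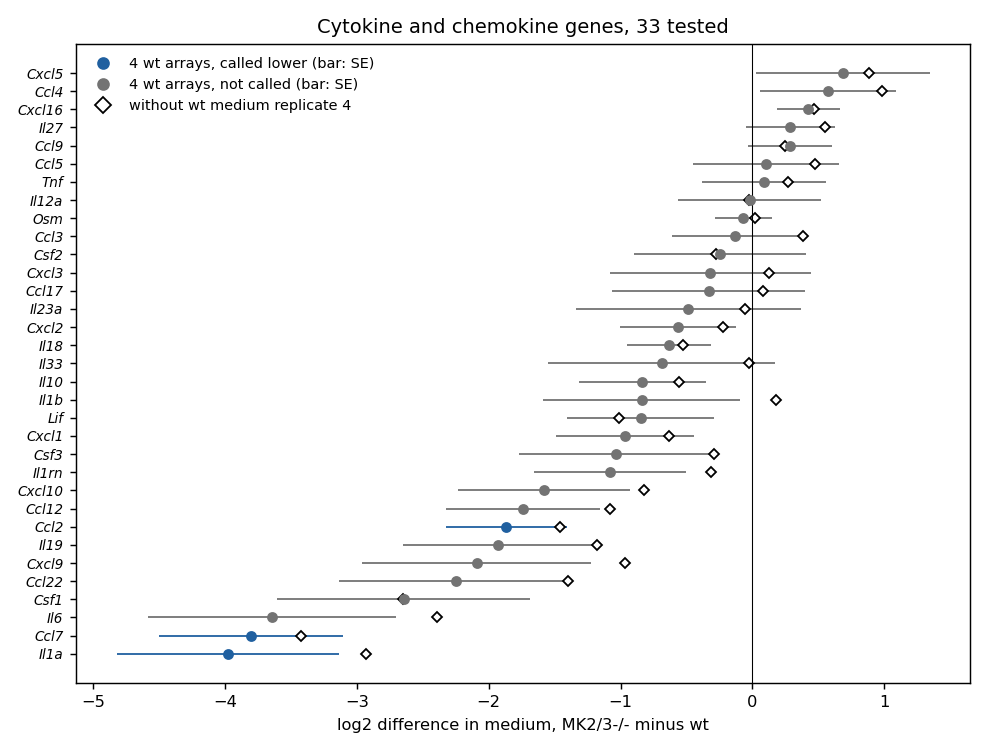
Log2 difference in medium, MK2/3-/- minus wt (horizontal axis), of the 33 tested cytokine and chemokine genes (vertical axis), with all 4 wt arrays (circles, bars show the SE, blue if called) and without wt medium replicate 4 (open diamonds). Il1a, Ccl7 and Ccl2 are the called genes, and leaving out replicate 4 moved most genes towards 0 (median -0.69 with and -0.27 without it).

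A broader set of LPS-responsive genes was taken from arrays outside the compared groups, namely genes that changed at least 4-fold between LPS and medium in MK2-/- BMDM. These arrays were part of the same normalisation and fit. Of 1167 induced genes 12 were called lower in resting MK2/3-/- BMDM (1.03%, compared with 0.554% of all genes) and 1 higher (0.0857%, compared with 1.4%). Without wt replicate 4 there were 5 lower calls, Mapkapk2 and Cish among them, and the median difference of -0.16 became -0.05. The median log2 signal of the induced genes was 8.84, 8.67, 8.56 and 9.07 in the wt arrays and 8.60, 8.56 and 8.34 in the MK2/3-/- arrays. The 12 lower genes included the targeted gene Mapkapk2 and Cish, which directly follows Mapkapk3. Besides these and others described above, they comprised Fst (-3.76), Plat (-3.05), Bank1 (-2.31), Atp10a (-1.43), Phf11c (-1.29) and a transcript without a symbol. The higher gene was Sdc4, which encodes the heparan sulfate proteoglycan syndecan 4, with signals of 9.59, 9.39, 9.11 and 10.31 in wt and of 13.21, 12.89 and 11.39 in MK2/3-/- BMDM (difference 2.90, SE 0.68, adjusted p 0.0394). Fst, Plat, Bank1, Atp10a, Phf11c and Sdc4 were named after their values had been seen. Without wt replicate 4 only Phf11c of these was called (adjusted p 0.0445), whereas Fst, Plat, Bank1 and Atp10a had adjusted p of 0.104, 0.107, 0.103 and 0.104 and Sdc4 of 0.0604. The groups overlapped for Fst. None of 1811 repressed genes was called higher and 8 were called lower (0.442%), with a median of -0.25.

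Of the 15 genes with a symbol that had the largest negative difference among those called with and without wt replicate 4, several others were outside these groups. 1810062G17Rik was at least 8.41-fold lower (adjusted p 0.00534), Aox1, which encodes aldehyde oxidase, at least 6.63-fold (adjusted p 0.0419, 3.89-fold without wt replicate 3), Sec14l4 at least 2.67-fold (adjusted p 0.0111) and Prps1l1 at least 2.55-fold (adjusted p 0.0316), each without an MK2/3-/- array well above background. Gm10516 (-2.70), Styk1 (-2.01) and the vomeronasal receptor gene Vmn2r46 (-1.97) were also among the 15.

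Among the higher genes called with and without wt replicate 4, most of the 15 with the largest differences had very low signals. Ttn, which encodes the muscle protein titin, was at 1.99, 2.01, 2.04 and 2.71 in wt, where it was never well above background, and at 5.32, 4.94 and 5.25 in MK2/3-/- BMDM, at least 2.66-fold higher (adjusted p 0.00837). The neuronal membrane glycoprotein gene Gpm6a was at least 2.58-fold higher (adjusted p 0.00534) and Tinag, known from kidney basement membranes, at least 2.74-fold (adjusted p 0.00684). The olfactory receptor genes Olfr739, Olfr677, Olfr1463 and Olfr1338 were at least 2.31-, 3.29-, 2.07- and 1.61-fold higher, and the vomeronasal receptor gene Vmn1r77 at least 1.57-fold. For all these genes the bound rests on the background of the wt arrays, and the adjusted p tests the measured difference rather than the bound. Over all alternatives the log2 difference ranged from 0.61 to 3.88 for Ttn and from 0.58 to 3.36 for Olfr677, so the bounds did not hold in each of them. Potegl (2.32), BC039966 (2.23), Vmn2r115 (2.04) and Ralyl (1.96) had some wt arrays above background.

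A pair of genes was far above background in every array. Zfp352, a zinc finger gene known from the early embryo, was at 9.22, 9.39, 9.60 and 9.98 in wt and at 11.61, 11.76 and 12.05 in MK2/3-/- BMDM, a difference of 2.26 (SE 0.34, adjusted p 0.0043) that was called in each of the 7 fits without 1 array. A further Zfp352 probe had a difference of 0.64 and was not called. The transcript 4932412D23Rik was at 8.76 to 9.21 in wt and at 11.06 to 11.46 in MK2/3-/- BMDM (2.33, SE 0.40, adjusted p 0.00968), and its other probe was also called, at 1.12. The promoter window of Zfp352 is shown because the gene was called higher in all of these fits and well above background on all 7 arrays. It covers chr4:90218570-90218869 on the plus strand of GRCm38.p6 in RefSeq and held 1 match to the NF-kB letters, in capitals, and none to the others.
Zfp352: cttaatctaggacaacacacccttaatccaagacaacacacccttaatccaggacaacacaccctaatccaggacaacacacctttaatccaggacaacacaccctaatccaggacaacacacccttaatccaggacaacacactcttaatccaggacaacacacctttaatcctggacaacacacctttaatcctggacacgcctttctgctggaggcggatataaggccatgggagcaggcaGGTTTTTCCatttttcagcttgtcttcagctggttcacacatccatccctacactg

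Much of this window is a short unit in tandem copies. Its most frequent stretch of 12 bases occurred 7 times, and 1.72% of the 32851 windows held a stretch that occurred at least as often.

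**Figure D5:**
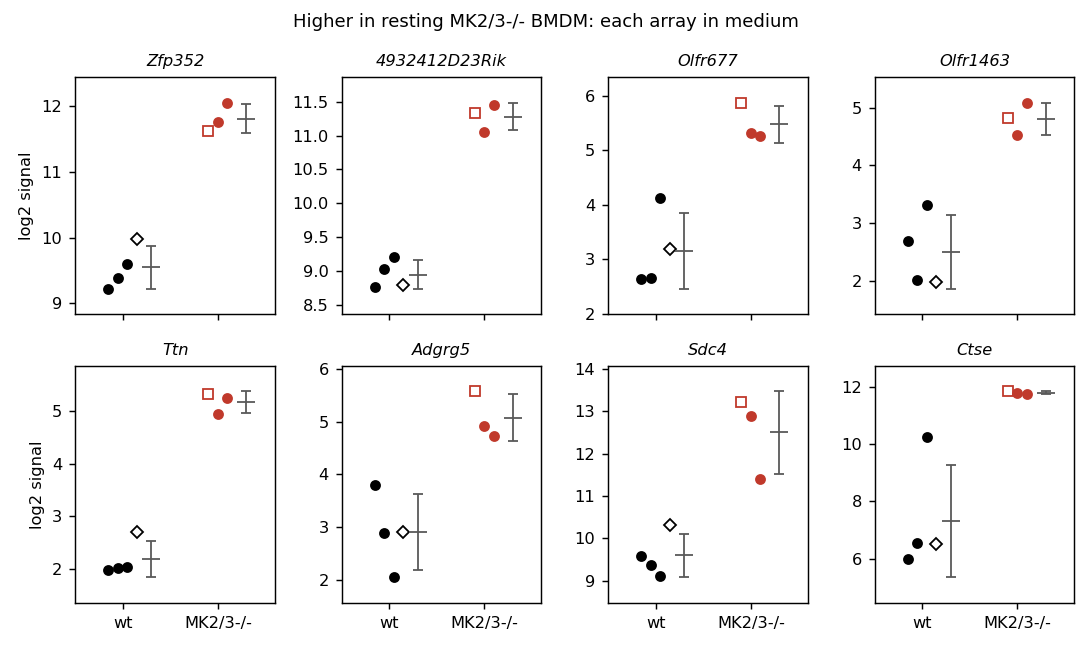
Log2 signal (vertical axis) of 8 genes that were higher in MK2/3-/- BMDM, 1 point per medium array, in wt (black, replicate 4 as an open diamond) and MK2/3-/- BMDM (red, replicate 1 as an open square), with mean and SD beside the points. Zfp352 and 4932412D23Rik separate the genotypes at high signal, Ttn and the olfactory receptor genes at the background of the wt arrays, and Ctse was high in wt replicate 3 as well.

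Sensory receptor genes, which encode odorant and pheromone receptors of the nose, were examined as a family. Of 1349 members listed, 859 passed the detection filter, some of them only through the arrays in which they were bright. Of these 859, 42 were called higher and 3 lower (5.24% in both directions, compared with 1.95% of all genes), and 17 and 2 without wt replicate 4. Among genes below the median signal 4.99% of 821 members were called, compared with 2.57% of the 10371 other genes. Olfactory receptor genes (679 tested) gave 32 higher and 2 lower calls, Vmn1r genes (110 tested) 5 and 0, and Vmn2r genes (57 tested) 4 and 1. The remaining called member was H2-M10.3, a nonclassical class I gene expressed with vomeronasal receptors, with signals of 2.01 to 4.04 in wt and of 8.39, 5.04 and 5.20 in MK2/3-/- BMDM (at least 4.82-fold, 2.27-fold without MK2/3-/- replicate 1, adjusted p 0.0457, not called without wt replicate 4, adjusted p 0.105). The median difference of the family was 0.49, and 0.54 without replicate 4. The mean log2 signal over the family ranged from 4.64 to 4.88 in the wt arrays and from 5.17 to 5.44 in the MK2/3-/- arrays. All 3 knockout arrays thus lay above all 4 wt arrays, and the arrays brighter in this family were those with the higher processed signal before normalisation. The family lies near background, and its median difference was 0.16 after normexp background correction, 0.48 after cyclic loess and 1.29 after 75th percentile scaling, with medians over all genes of -0.02, -0.11 and 0.09. The part of array brightness in this difference was not tested.

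Other pathways held few calls or none. DNA replication and cell cycle genes had a median of -0.50, and -0.31 without wt replicate 4. Of 40 genes 35 were below 0 (87.5%, compared with 53.4% of all genes). The only call was E2f7, a repressor of E2F target genes, which was higher (1.11, SE 0.26, adjusted p 0.0419 and 0.0573 without wt replicate 4). A further E2f7 probe went the other way, with a difference of -1.01, and was not called. Mcm6 (-1.28, adjusted p 0.25) and Cenpf (-1.96, adjusted p 0.151) had the groups apart without a call. The groups did not overlap in 6 of the 40 genes (15%), compared with 24.3% of all genes. Replicate 4 was the highest wt array in 30 of the 40 genes. Cd4, a coreceptor of helper T cells, was at 10.93 to 11.70 in wt and at 12.34 to 12.81 in MK2/3-/- BMDM (1.26, SE 0.29, adjusted p 0.0372 and 0.0543 without replicate 4). A further Cd4 probe had a difference of 0.37 and was not called. Of the 9 tested markers of T and NK cells, Cd4 among them, 2 had a negative difference, and the median was 0.46. The T cell genes Cd3e and Lck differed by 0.46 and -0.13 without a call. No gene was called in 12 further lists, namely 32 immediate-early genes (median 0.04), 32 genes of NF-kB and TLR4 signalling (0.03), 31 of cholesterol synthesis and LXR targets (-0.14), 12 of MHC class II (0.32) and 18 of MHC class I presentation (0.12). The same held for 27 genes of glycolysis (-0.29), 26 of the NRF2 response (-0.01), 24 of the integrated stress response (-0.09), 17 heat shock genes (-0.19), 35 ribosomal protein genes (0.02), 36 of the mitochondrial respiratory chain (-0.18) and 30 of the cytoskeleton (-0.00). Together with the macrophage identity genes these 13 lists hold 345 genes. Of these, 28 (8.12%, compared with 17.1% of all genes) had an unadjusted p below 0.05 in limma. With the t-test that the methods name, none of the 345 passed after Benjamini-Hochberg adjustment. Lysosomal hydrolases (33 tested) and genes of alternative activation (24 tested) held Ctse, and the latter also Cish. The median of 37 tested interferon-stimulated genes was -0.19 and became 0.07 without wt replicate 4.

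To see which basal differences were also present in stimulated cells, the same genotypes were compared under LPS. The means came from other arrays, but these lay on the same slides. They also shared the normalisation and the spread of each gene with the resting comparison, so the comparisons are not independent. Of the 313 genes higher at rest 253 (80.8%) were also called higher under LPS, where 9.4% of all genes were, and of the 124 lower genes 74 (59.7%) were also called lower, where 14.3% were. Conversely, these were 12% of the 2105 genes higher and 2.32% of the 3196 genes lower under LPS. Only 1 gene was called in the opposite direction. It was Adgrg5, an adhesion G protein-coupled receptor, which was at least 2.21-fold higher at rest (adjusted p 0.00944). Its probe was well above background in the 3 MK2/3-/- medium arrays but in no wt array, with or without LPS, and in no MK2/3-/- array under LPS, so that the call under LPS compares groups that were both below background. Among these groups and the MK2-/- medium arrays, Adgrg5 met the detection filter of 3 arrays only where it was high. Its calls are thus not independent of that filter. Besides Mapkapk3 it was the only gene of the 437 for which the interaction with LPS was called, compared with 0.652% of all genes. Among the LPS-inducible genes that were lower at rest, Il1a (0.34, adjusted p 0.81), Ccl7 (-0.87, adjusted p 0.391), Ccl2 (-0.38, adjusted p 0.584) and Cish (-0.85, adjusted p 0.238) were not called under LPS, but their interactions were not called either. Serpinb2 was called lower under LPS as well (-3.27, adjusted p 0.0274). Abhd14b (-4.59), Abhd14a (-4.07), Zfp352 (2.46) and Ctse (4.99) were called under LPS in the same direction.

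The MK2-/- medium arrays show how the named genes stood when MK2 alone was missing. They share the wt arrays with the comparison above, so that the values are given side by side only. Against wt, 8.57% of the genes were called in MK2-/- BMDM, and 2.82% differed between MK2/3-/- and MK2-/- BMDM. Mapkapk2 was lower in MK2-/- BMDM by a log2 difference of -3.04 and Mapkapk3 by -0.25 (adjusted p 0.499). Of the 80 genes beside Mapkapk3, 4 (5%) differed between MK2/3-/- and MK2-/- BMDM, and of the 80 beside Mapkapk2 3 (3.75%) did. Abhd14b differed from wt by -0.16 in MK2-/- BMDM (adjusted p 0.807), and MK2/3-/- BMDM lay -3.72 from MK2-/- (adjusted p 5.73e-05). For Pcbp4 these values were -0.37 and -1.71 (adjusted p 0.575 and 0.0322). Cish differed from wt by -1.20 in MK2-/- BMDM (adjusted p 0.119) and was at least 3.47-fold lower in MK2/3-/- than in MK2-/- BMDM (adjusted p 0.0178). The remaining one of the 4 was Parp3, at -0.26 from wt (adjusted p 0.402) and -1.18 from MK2-/- BMDM (adjusted p 0.0025). Abhd14a was not called in either comparison (-1.21 and -2.25, adjusted p 0.196 and 0.0611), and Tlr9, at 0.61 from wt in MK2-/- BMDM (adjusted p 0.0443), lay 0.24 higher in MK2/3-/- BMDM without a call (adjusted p 0.631). Ccl7, Ccl2 and Ctse had differences from wt of -3.50, -2.25 and 4.41 in MK2-/- BMDM, all called, and MK2/3-/- BMDM differed from MK2-/- BMDM by -0.30, 0.38 and 0.06 without a call. Serpinb2 was well above background in no array of either knockout, so that the knockouts cannot be compared, and it was at least 16.8-fold lower in MK2-/- BMDM than in wt. Il1a was well above background in 1 of 4 MK2-/- arrays and was called lower than in wt (adjusted p 0.0274). Zfp352 in MK2-/- BMDM lay between the other genotypes, at 0.94 from wt (adjusted p 0.0682), and MK2/3-/- BMDM lay 1.32 from MK2-/- (adjusted p 0.0394). Olfr1463 was well above background in no wt and no MK2-/- array, and MK2/3-/- BMDM lay at least 2.44-fold above MK2-/- (adjusted p 5.73e-05). Ttn, Gpm6a, Tinag and Olfr677 were at least 1.93-, 1.71-, 2.21- and 2.75-fold above wt in MK2-/- BMDM (adjusted p 0.00463, 0.00463, 0.00329 and 0.00134).

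A small core of genes did not depend on any single array. Of the 437 genes 19 were called in each of the 7 fits without 1 array, 8 of them higher and 11 lower, and 14 of the 19 have a symbol. Beside Mapkapk2, Mapkapk3, Abhd14b, Cish, Parp3, Zfp352, Olfr677 and Olfr1463 these were Plcxd1, Efcab9, Aspdh, Myod1, Sprr2e and 4933436H12Rik, which were named after their values had been seen. Plcxd1, a phospholipase C-like gene on chromosome 5, was at 10.98, 10.61, 11.27 and 11.53 in wt and at 9.13, 9.24 and 9.08 in MK2/3-/- BMDM (-1.95, SE 0.21, adjusted p 1.12e-04), and at -2.16 under LPS. In MK2-/- BMDM it differed from wt by -0.03 (adjusted p 0.938). Myod1, a master regulator of muscle differentiation, was at 6.07 to 6.46 in wt and at 7.28 to 7.42 in MK2/3-/- BMDM (1.06, SE 0.16, adjusted p 0.00534), and at -0.02 from wt in MK2-/- BMDM (adjusted p 0.949). For both genes the genotypes did not overlap, as in 24.3% of all genes. The wt arrays of Plcxd1 had an SD of 0.40, above the median of 0.29 over all genes in wt.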

How the data were processed

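RNA of each culture was labelled with Cy3 and hybridised to an Agilent 1-colour mouse array. As deposited by the authors, each scanner file holds processed intensities per spot, corrected for background by Feature Extraction 11.0.1.1 and not yet comparable from array to array. A further deposited table gives log2 values that were quantile normalised and centred per probe according to the methods, and it served only as an alternative (r with the own array at least 0.997). Samples were grouped by their labels. Of 62976 spots 3671 controls were left out, and spots marked as outliers were set to missing. Log2 signals were averaged per probe and quantile normalised across 22 arrays, the normalisation that the methods name. Of the probes with an accession, 28103 passed a detection filter (signal well above background on 3 or more arrays). Each gene was represented by its brightest probe on average, which left 22384 genes, 18375 with a symbol from RefSeq (GRCm38.p6). The array design uses the build mm9, so no probe coordinates are given.

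Differences were tested across all genes with limma 3.58.1 in R 4.3.3 (lmFit and eBayes, means of 6 groups on 22 arrays, 2-sided, Benjamini-Hochberg adjusted p below 0.05 called). Scripts were tested on simulated data. The number of arrays limits the precision. A fold against a group with no array well above background is a lower bound. For it, each dim array was given its lowest detected signal (over all detected probes), or the measured value of the probe if that was larger. The adjusted p beside a bound belongs to the limma test of the measured difference, not to the bound. Under other processing the measured difference could be smaller than the bound. Named are the targeted genes, the 15 genes with a symbol with the largest positive and the 15 with the largest negative difference among those called with and without wt medium replicate 4, and called members of the gene lists (sensory receptor genes beyond these by counts only). Some genes that meet this rule are not reported here. Members and lists were chosen with earlier results of these data known. Promoter windows were matched for 260 of the 437 called genes. The NF-kB letters were shortened by a leading G after the counts of the longer form, which matched none of the windows shown, had been seen. No replicates were duplicates (median absolute log2 difference of any pair at least 0.27). Alternatives covered normalisation, background correction, filters, tests, covariates, blocks and each left-out array.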

Additional observations from a re-analysis of the deposited data

Results flagged for a closer look

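The genotype difference changed with LPS for 2 of the named genes, by the test of the interaction. For Mapkapk3 the difference between MK2/3-/- and wt BMDM was lower under LPS than in medium by a log2 value of -2.18 (SE 0.33, limma adjusted p 0.0171), and for Adgrg5 the value was -3.31 (SE 0.53, adjusted p 0.019), with the probe well above background only in the MK2/3-/- medium arrays of these groups. Adgrg5 passed the detection filter through these arrays, so its interaction is not independent of that filter.

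In 5 of 39 named genes 1 array stood apart from the other 3 of the wt medium group, its gap to the nearest array taking more of the whole range than Dixon's critical value for 4 samples allows. Chance gives about 1 such gene in 20 where values can vary freely, which cannot be applied to the first 4 genes below, whose other wt arrays lay at or next to the lowest signals. The gap was 0.92 of the range for Ttn, 0.939 for Gpm6a, 0.845 for Olfr739 and 0.916 for Olfr1338, each with replicate 4 as the high array, at log2 signals of 2.71, 2.93, 2.36 and 3.56, all below background. For Ctse it was 0.874, with replicate 3 at 10.24 and the others at 5.99 to 6.53.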

How the results depend on the processing

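The 437 calls became 4270 with 75th percentile scaling, 931 with cyclic loess, 285 in the authors' table, 5051 and 166 by the methods' t-test without and with Benjamini-Hochberg adjustment, 1827 with array weights, 287 with a trended and robust prior and 216 with age as a covariate. Without 1 array they ranged from 20 (MK2/3-/- replicate 1) to 202, with 79 without wt replicate 1, 158 without wt replicate 2, 202 without wt replicate 3, 182 without MK2/3-/- replicate 2 and 115 without MK2/3-/- replicate 3. The 145 calls made without wt replicate 4 became 2 with only the 6 compared arrays fitted (4500 at an unadjusted p below 0.05), 51 with the medium arrays, 3338, 476 and 54 with 75th percentile scaling, cyclic loess and normexp, 4241 and 0 by the methods' t-test without and with adjustment, 1047 with array weights, 80 with probes above background on all 7 arrays and 69 with age. Without 1 further array they ranged from 20 to 111, the 20 being those without MK2/3-/- replicate 1, a combination chosen after seeing the data, with 55, 73 and 77 without wt replicates 1, 2 and 3 and 54 without MK2/3-/- replicate 3.

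The gene lists held 57 called genes, which became 468, 90 and 23 under the same scalings and normexp, 347 and 16 by the methods' t-test, 186 with array weights, 36 with the trended prior, 30 with probes above background on all 7 arrays, 32 with age and 5 to 30 without 1 array (lowest without MK2/3-/- replicate 1). The 327 genes also called in the same direction under LPS became 3186, 633 and 215 with 75th percentile scaling, cyclic loess and the authors' table, 2279 and 4 by the t-test, 912 with array weights, 188 at a change of at least 2-fold, 166 with age and 18 to 165 without 1 array. Mapkapk2 was called in all settings but the adjusted t-test (-3.48, adjusted p 0.0525) and the block by number.

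The titles give each array a replicate number, and the array names a replicate letter. Deviations from the group means correlated at -0.18, 0.24 and -0.05 for arrays of the same number and at -0.18, 0.24 and 0.06 for arrays of the same letter (a, b and e), so neither was taken as a pairing. With the replicate block by number on the compared arrays, 0 genes of the comparison (4246 at an unadjusted p below 0.05), 0 without wt replicate 4 and 0 of the lists were called by limma, with Mapkapk2 at -3.31 and Mapkapk3 at -1.98 (adjusted p 0.197 for both). A replicate block by letter left 387 calls across genotypes and 468 within genotype. With 1 probe per gene, none of the 37 other named genes changed direction in any of 966 values. Of these values 259 lost the call. The cause of these changes was not tested. With 3 and 4 arrays per genotype, 1 array decides many calls, and in 47 of the higher and 31 of the lower genes the dimmer genotype had no array well above background.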
